A study of Mus musculus with 6 samples.

Results

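The genes described here are 52 components of the DNA replication machinery and of deoxynucleotide supply, found by gene name among the 55367 gene names counted in primary mouse keratinocytes. They were chosen for their known roles, from origin licensing through the replicative helicase, polymerases, sliding clamp and fork proteins to nucleotide synthesis. The choice was made with earlier results of these data known. The counts below describe these genes and do not test them as a set. All 52 were present and all passed the filter on low counts. Primary mouse keratinocytes are epidermal cells isolated here from the skin of day 2 pups and grown in low-calcium medium, which keeps them largely in a basal, dividing state. RNA was sequenced from 6 cultures in 3 batches. Each batch gave 1 iASPP-KO culture, in which tamoxifen was added with the change of medium at 24 h, and 1 iASPP-WT culture, which received fresh medium only. The 24 h count from plating and are not the length of treatment. By the methods of the study, cells were kept for days after this change. Every culture, the iASPP-WT cultures included, was of the genotype Ppp1r13l flox/flox;Cre+ERT on a mixed C57BL/6 and 129/Sv background. Exon 8 of Ppp1r13l, the gene encoding iASPP, lies between loxP sites, and the tamoxifen-inducible Cre is expressed from the Gt(ROSA)26Sor locus, so that it is not limited to one cell type. Because tamoxifen was given only to the iASPP-KO cultures, the drug and the deletion cannot be told apart in any difference below. The labels give its concentration as 1 mM, while the methods of the study give it in μM. How many pups made up a batch was not stated, so the number of animals behind a p-value is not known. With batch in the model, p-values measure how the difference between conditions spread over these 3 batches, with that spread moderated over genes.

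In the G1 phase of the cell cycle, the origin recognition complex together with CDC6 and CDT1 loads the MCM2-7 helicase onto DNA, a step called licensing. In S phase the CDC7-DBF4 kinase and the cyclin-dependent kinases turn the loaded ring into the active CMG helicase (CDC45, MCM2-7 and GINS), behind which polymerases alpha, delta and epsilon copy the strands with the PCNA clamp. Many of these genes are transcribed under E2F transcription factors as cells enter the cycle, and in the epidermis they are a mark of the dividing basal layer, since keratinocytes stop replicating as they leave it.

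The libraries held 20202517 to 25157117 counts. Levels are in CPM, that is, counts scaled to a common library size, after TMM scaling by edgeR, which sets the scale from the bulk of the genes. On this scale 3 counts, taken as the floor of detection, correspond to 0.123 to 0.141 CPM, and the floor covers counting error only. The lowest count of any of the 52 genes in any library was 59. Ppp1r13l (chromosome 7, 19359749 to 19378533, GRCm38) was at 14.3, 17.7 and 5.91 CPM in batches 1, 2 and 3 of iASPP KO and at 32.7, 45.1 and 21.0 CPM in the iASPP-WT cultures, a log2 fold change of −1.45 with an SE of 0.18 and an edgeR adjusted p of 0.00296. Its counts include the exons outside the deleted one. Basal keratinocyte markers (Krt5, Krt14, Trp63, Itga6, Itgb4 and Col17a1) summed to 22866 to 26739.9 CPM in iASPP KO and 23629 to 27412 in iASPP WT, and 0 of 6 passed the test (Krt14 had a log2 fold change of −0.02). Of 6 suprabasal markers, Krt10 was lower (log2 fold change −1.31) and Sbsn higher (0.67), with sums of 951 to 2876 CPM in iASPP KO and 851 to 2548 in iASPP WT. Fibroblast markers set batch 3 apart, with a sum of 454 CPM in its iASPP-KO and 669 in its iASPP-WT culture against 33.7 to 51.5 in the other 4 libraries, and 2 of the 6, Col1a2 and Col3a1, were lower in iASPP KO (log2 fold changes −0.55 and −0.87). Of 6 leukocyte markers, Csf1r was higher in iASPP KO (log2 fold change 1.11) and Cd3e was at 0 in every library, with sums of 64.8 to 79.7 CPM in iASPP KO and 43.5 to 63.2 in iASPP WT. Melanocyte markers summed to 384 to 994 CPM in iASPP KO and 329 to 1054 in iASPP WT, endothelial markers to 3.87 to 21.5 and 9.31 to 11.0, and none of these passed. The part of such cells in the values below was not tested, and fewer dividing cells and less RNA per cell cannot be told apart in bulk RNA.

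Every replication gene that passed the test was lower in iASPP-KO keratinocytes. Of the 52 genes, 23 (44.2%) had significantly lower expression in iASPP KO and none had significantly higher expression, by edgeR's quasi-likelihood test with batch in the model and Benjamini-Hochberg adjustment over all 14916 tested genes at a threshold of 0.05. Over all tested genes, 1.95% were lower in iASPP KO and 2.17% higher, 4.12% in either direction. At an unadjusted p below the same threshold, 40 members were lower and 0 higher, against 1206 and 1292 of the 14916 tested genes. DESeq2 called 26 members lower and 0 higher, against 402 and 470 genes in all. Log2 fold changes compare iASPP KO with iASPP WT, so that a negative value means a lower level in iASPP KO, and SE is the standard error. The log2 fold change was negative for 51 of the 52 genes, with Tk1 the exception, against 49.4% of all tested genes, and its median was −0.61, against 0.01 over all tested genes. By batch the median of the members was −0.78, −0.62 and −0.62 in batches 1, 2 and 3, and 45 of 52 genes were lower in each of the 3 batches, as were 19.7% of the tested genes. The members lie on 15 chromosomes. By gene set enrichment on the same libraries, the study had already placed sets of cell division and E2F targets among those higher in iASPP-WT cells.

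**Figure D1:**
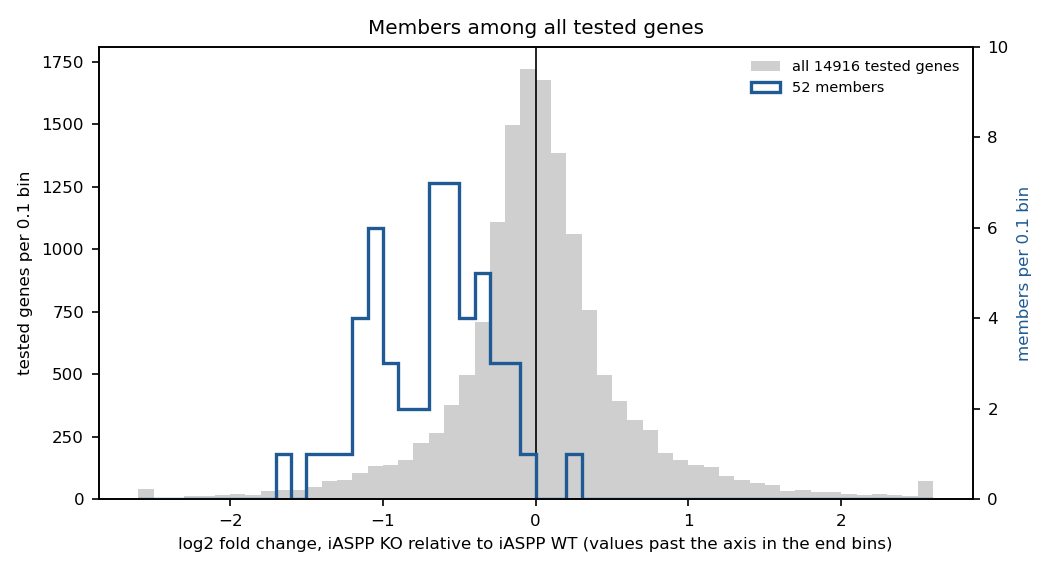
Log2 fold change between iASPP KO and iASPP WT (horizontal axis, values past the axis in the end bins) for all 14916 tested genes (grey, left axis, genes per bin) and for the 52 replication and nucleotide supply genes (blue outline, right axis). The members lie to the left of 0 with the exception of Tk1, with a median of −0.61, and 28 of them are among the 10% of tested genes with the lowest log2 fold change.

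Batch-to-batch differences were large beside the difference between conditions. In 43 of the 52 genes the culture of batch 3 was the highest within both conditions (26.1% of the tested genes). In 19 genes the iASPP-KO culture of batch 3 lay above the iASPP-WT cultures of batches 1 and 2. That share is no larger than the 39.1% of all tested genes, so it does not set the members apart. The CPM ranges of the conditions were separate for 14 of the 52 genes, all lower in iASPP KO, while 5.46% of the tested genes were separate in that direction and 5.26% in the other, and the comparison rests on same-batch pairs. Without the batch term no member passed the threshold, and 18 had an unadjusted p below 0.05. With batch 1 left out 10 members passed and with batch 2 left out 12 did, while 29 passed without batch 3. Over all tested genes the lower calls moved the same way, to 151, 117 and 662 from 291 with all batches. Calls lost or gained in these fits are thus not particular to the members. The 9 genes that passed with all batches and also with each batch left out were Mcm3, Mcm5, Mcm6, Cdc45, Pole2, Rpa2, Timeless, Uhrf1 and Hells.

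**Figure D2:**
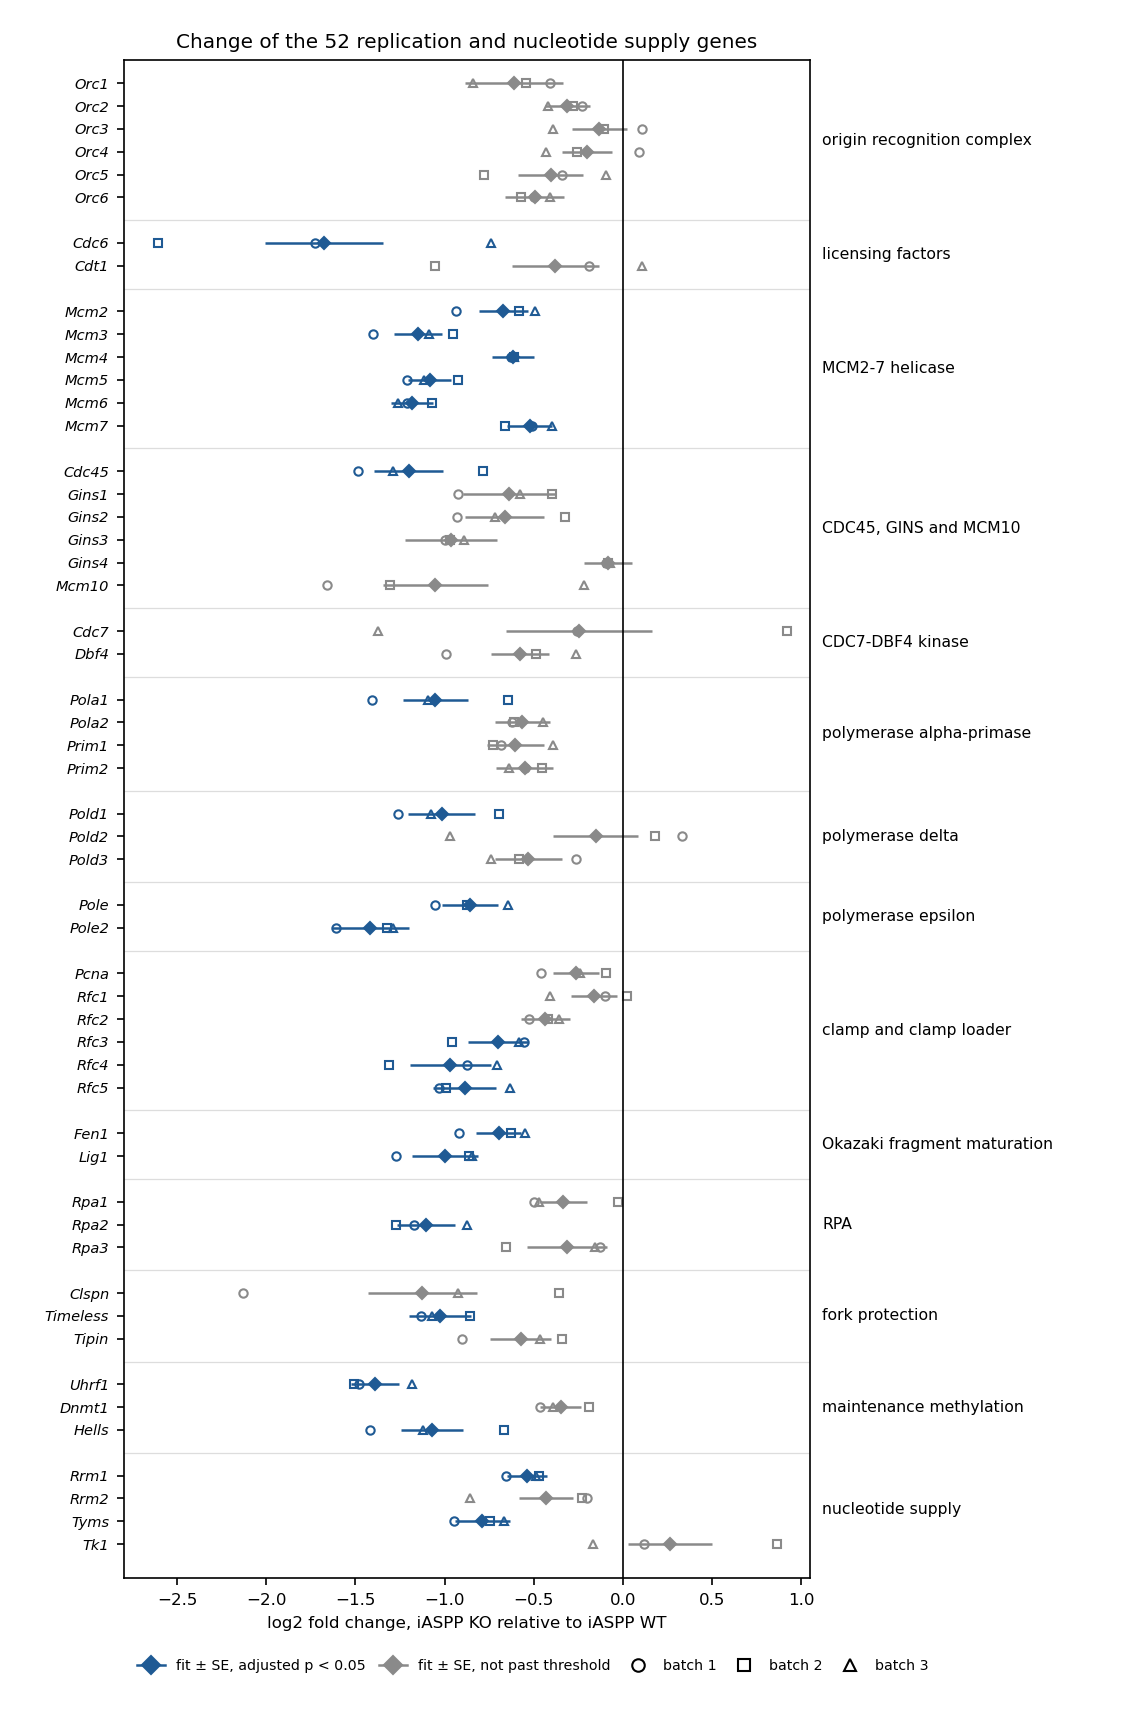
Log2 fold change (horizontal axis) of each of the 52 genes, grouped by sub-complex. Diamonds with bars give the fitted value ± its standard error (blue where the adjusted p is below 0.05, 23 genes, grey otherwise), and open circles, squares and triangles give batches 1, 2 and 3. All MCM2-7 genes are blue, all origin recognition complex genes are grey, and Tk1 alone has a fitted value above 0.

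The promoters of the members were searched for short runs of letters known from cell-cycle genes. RefSeq promoters (GRCm38.p6, 250 bases before to 50 after the start) were at hand for 44 of the 52 genes, 56 promoters in all. The E2F letters TTTCGCGC or TTTGGCGC, on either strand, were found in 13 of these 56 promoters (23.2%), those of 13 genes, against 0.813% of all 32851 promoters in the table and 1.51% of the 13469 promoters of tested genes. The letters CCAAT were in 53.6% of member promoters and 37.4% of all (37.6% of those of tested genes), and TTTGAA or TTCGAA, which spell the CHR element of cell-cycle genes, in 19.6% and 19.2% (14.1% of those of tested genes). Of the 13 genes with E2F letters, 9 passed the test (median log2 fold change −1.05), and of the 31 searched genes without them 12 did (−0.56). These are matches of letters, not sites of binding, and the difference was not tested. The other 4 genes with the letters, Orc1, Clspn, Cdt1 and Dnmt1, did not pass.

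The stretches that hold the letters in the 9 genes that passed are shown 5′ to 3′ on the gene's strand, with the E2F letters in capitals. The Mcm6 promoter (chr1:128359729-128359831, - strand) held 3 matches, 2 of them overlapping, before the start. In the Mcm5 promoter (chr8:75109340-75109383, + strand) 2 matches overlapped, which makes 1 run of capitals. Uhrf1 (chr17:56304112-56304151, + strand) and Pola1 (chrX:93632270-93632309, - strand) had 1 match before the start. The Uhrf1 start used here lies inside the gene, which begins at 56303321. The other Uhrf1 promoter, at the beginning of the gene, held CCAAT but no E2F letters.
Mcm6: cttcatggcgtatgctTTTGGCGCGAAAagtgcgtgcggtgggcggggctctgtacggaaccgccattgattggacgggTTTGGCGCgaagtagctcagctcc
Mcm5: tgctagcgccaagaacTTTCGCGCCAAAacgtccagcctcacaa
Uhrf1: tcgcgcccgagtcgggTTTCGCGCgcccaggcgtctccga
Pola1: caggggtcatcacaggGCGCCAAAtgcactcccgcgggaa
In Rfc3 (chr5:151651201-151651228, - strand) the match began 10 bases before the start. In Mcm3 (chr1:20820263-20820284, - strand), Mcm7 (chr5:138171850-138171877, - strand), Pole2 (chr12:69228163-69228190, - strand) and Lig1 (chr7:13278842-13278869, + strand) it lay between 11 and 46 bases after it, and only the bases beside it are shown. The starts used for Mcm7 and Lig1 also lie inside the gene (138164583 to 138172422 and 13277283 to 13311433).
Rfc3: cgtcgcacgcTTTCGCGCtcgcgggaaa
Mcm3: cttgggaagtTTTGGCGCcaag
Mcm7: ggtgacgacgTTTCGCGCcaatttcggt
Pole2: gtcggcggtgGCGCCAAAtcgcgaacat
Lig1: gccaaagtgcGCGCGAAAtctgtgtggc

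The origin recognition complex, the ring that marks origins and is held on chromatin through much of the cycle, had small changes. None of its 6 subunits passed the threshold with edgeR, 2 had an unadjusted p below 0.05 (both lower), and DESeq2 called 0. The median log2 fold change was −0.36, with a range of −0.61 to −0.13. Orc1, the subunit that is degraded and made again in each cycle, was at 5.12, 5.12 and 5.23 CPM in batches 1, 2 and 3 of iASPP KO and at 6.84, 7.51 and 9.44 CPM in the iASPP-WT cultures, a log2 fold change of −0.61 with an SE of 0.28 and an edgeR adjusted p of 0.301. Its 3 iASPP-KO values were nearly equal and lay below all 3 iASPP-WT values. Orc3 was at 34.2, 26.4 and 31.6 CPM in iASPP KO and 31.7, 28.4 and 41.5 CPM in iASPP WT, with a log2 fold change of −0.13 with an SE of 0.16 and an edgeR adjusted p of 0.755. The values of Orc3 overlapped, and its direction differed between batches (0.11, −0.11 and −0.39). Orc2, Orc4, Orc5 and Orc6 had log2 fold changes of −0.31, −0.20, −0.41 and −0.49, with standard errors of 0.13 to 0.18. With Orc1, the ranges of Orc2 and Orc5 were separate too, so that 3 of the 6 genes had separate ranges. Together the complex reached 91.7%, 78.5% and 75.9% of its iASPP-WT level in summed CPM in batches 1, 2 and 3.

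Of the 2 loading factors, Cdc6 passed and Cdt1 did not. Cdc6 (chromosome 11, 98907801 to 98923940), the ATPase that completes the loader with the origin recognition complex, had the largest fall of the 52 genes. It was at 4.94, 2.65 and 10.6 CPM in the iASPP-KO cultures and 16.6, 16.6 and 17.7 CPM in the iASPP-WT cultures of batches 1, 2 and 3, a log2 fold change of −1.68 with an SE of 0.33 and an edgeR adjusted p of 0.0222. The ranges were separate, and the iASPP-WT values were close to one another, whereas the iASPP-KO values spread widely, with batch log2 fold changes of −1.73, −2.61 and −0.74. Without batch 2, where the fall was steepest, the call was lost (log2 fold change −1.23, adjusted p = 0.0905 by edgeR). Cdt1, which brings MCM2-7 to the origin, was at 13.7, 10.8 and 16.1 CPM in iASPP KO and 15.6, 22.5 and 15.0 CPM in iASPP WT, a log2 fold change of −0.38 with an SE of 0.24 and an edgeR adjusted p of 0.506. Its groups overlapped, its batch values were −0.19, −1.05 and 0.11, and without batch 2 the fitted value was −0.04.

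All 6 genes of the MCM2-7 ring, the motor of the replicative helicase, had significantly lower expression in iASPP KO. Their median log2 fold change was −0.88, and each was lower in all 3 batches. In summed CPM the ring reached 49.9%, 57.2% and 54.8% of the iASPP-WT culture of the same batch. Mcm6 (chromosome 1, 128331590 to 128359664) changed most and was at 39.9, 31.9 and 64.9 CPM in iASPP KO and 92.6, 67.1 and 156 CPM in iASPP WT, with means of 45.6 ± 17.2 and 105 ± 45.6 CPM (SD, n = 3 each), which gave a log2 fold change of −1.19 with an SE of 0.12 and an edgeR adjusted p of 0.00109. It was the only gene of the ring whose highest iASPP-KO culture lay below its lowest iASPP-WT culture. Mcm3 and Mcm5 fell by nearly as much, with log2 fold changes of −1.15 (SE 0.14) and −1.08 (SE 0.12). Mcm3 was at 25.9, 23.4 and 58.5 CPM in iASPP KO and 68.6, 45.4 and 125 CPM in iASPP WT, and Mcm5 at 36.9, 36.3 and 72.7 and 85.4, 68.9 and 158 CPM. In both genes the iASPP-KO culture of batch 3 was above the iASPP-WT culture of batch 2.

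The other 3 subunits had smaller changes. Mcm2, Mcm4 and Mcm7 had log2 fold changes of −0.67, −0.62 and −0.52. Mcm7 was at 36.7, 35.2 and 67.1 CPM in iASPP KO and 52.4, 55.7 and 88.3 CPM in iASPP WT, a log2 fold change of −0.52 with an SE of 0.13 and an edgeR adjusted p of 0.0490. Of its 42-base windows, the length of a read, 30.4% also occurred in 1 other gene, and reads that align to more than 1 place are left out by the counting. On the same strand, 3.89% of its exon bases are shared with Mir25 and Mir93. These calls were lost when a batch was left out, with adjusted p by edgeR of 0.181 without batch 1 and 0.103 without batch 2 for Mcm2, 0.0857 without batch 1 and 0.124 without batch 2 for Mcm4 and 0.181 without batch 1 and 0.318 without batch 2 for Mcm7. The fall of Mcm4 was nearly equal in the batches (−0.63, −0.61 and −0.61). In the fit Mcm3, Mcm5 and Mcm6 fell to 45.1%, 47.2% and 44.0% of the iASPP-WT level, and Mcm2, Mcm4 and Mcm7 to 62.9%, 65.2% and 69.7%. The difference between the subunits was not tested.

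**Figure D3:**
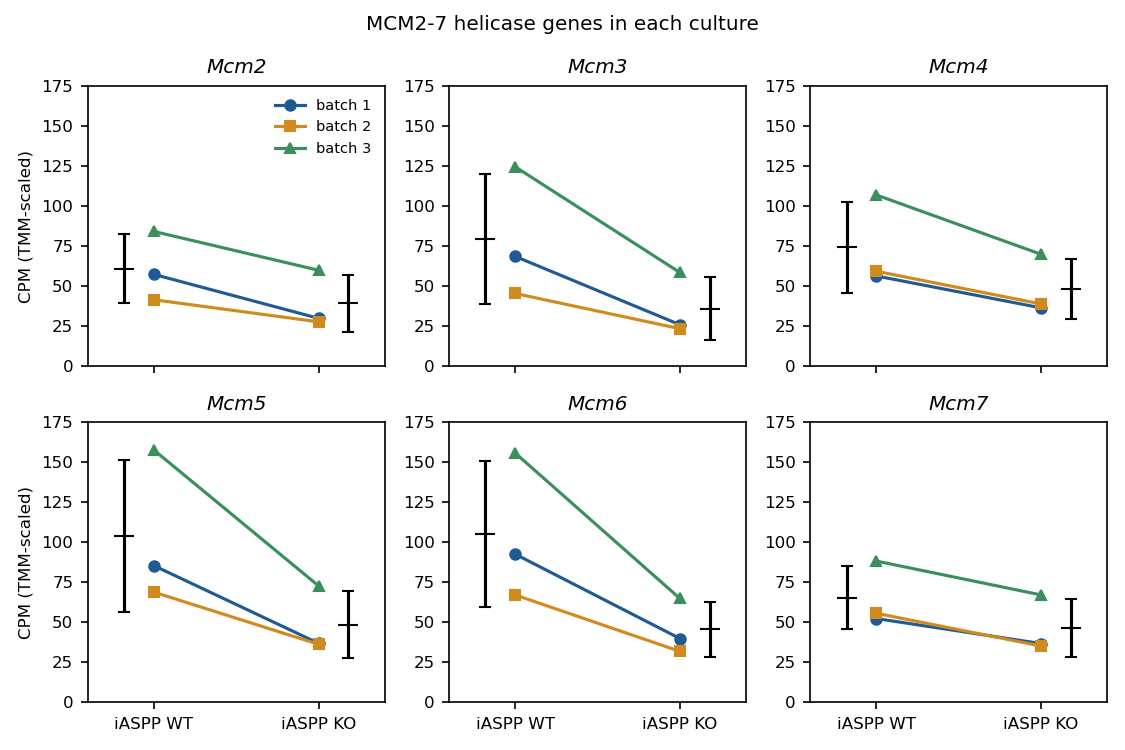
CPM (vertical axis, TMM-scaled) of the 6 MCM2-7 genes in each culture, with lines joining the iASPP-WT and iASPP-KO cultures of a batch and black bars giving the mean ± SD (n = 3). Each of the 18 lines falls toward iASPP KO, and the green triangles of batch 3 lie highest in both conditions, so that Mcm6 alone has separate ranges (31.9 to 64.9 against 67.1 to 156 CPM).

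Among the genes that turn the MCM ring into a moving helicase, Cdc45 passed and the GINS genes did not. Cdc45 (chromosome 16, 18780447 to 18811987), the helicase cofactor, was at 7.04, 6.11 and 22.5 CPM in iASPP KO and 19.9, 10.6 and 55.1 CPM in iASPP WT, a log2 fold change of −1.20 with an SE of 0.19 and an edgeR adjusted p of 0.00955. Its iASPP-KO culture of batch 3 lay above the iASPP-WT cultures of batches 1 and 2. Of the GINS subunits, Gins1, Gins2 and Gins3 had log2 fold changes of −0.64, −0.66 and −0.96 with adjusted p by edgeR of 0.240, 0.156 and 0.0724. Gins4, the last subunit of the same tetramer, had the smallest fitted change of the 52 genes. It was at 32.4, 29.6 and 44.99 CPM in iASPP KO and 34.6, 31.4 and 47.3 CPM in iASPP WT, a log2 fold change of −0.08 with an SE of 0.14 and an edgeR adjusted p of 0.829, and its batch values were −0.09, −0.08 and −0.07. Per kilobase of exon, Gins4 was at 28.0 ± 6.23 CPM in iASPP WT (SD, n = 3), against 6.25, 3.43 and 3.52 for Gins1, Gins2 and Gins3. Mcm10, which helps activate the helicase, had a log2 fold change of −1.05 with an SE of 0.29 and an edgeR adjusted p of 0.0836. Its log2 fold change was −1.66, −1.30 and −0.22 in batches 1, 2 and 3, and it passed without batch 3 (adjusted p = 1.1e-04 by edgeR) but not without batch 1 or 2 (adjusted p = 0.365 and 0.288). With all batches, Mcm10 passed with DESeq2 (adjusted p = 0.0326).

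The CDC7-DBF4 kinase fires licensed origins by phosphorylating the MCM ring. Neither gene passed with edgeR, 1 of the 2 had an unadjusted p below 0.05 (Dbf4, lower), and DESeq2 called 1, also Dbf4. Dbf4, the regulatory subunit (chromosome 5, 8396973 to 8422716), was at 25.7, 28.8 and 61.6 CPM in iASPP KO and 51.2, 40.4 and 74.0 CPM in iASPP WT, a log2 fold change of −0.58 with an SE of 0.16 and an edgeR adjusted p of 0.0806. It was lower in every batch, and without batch 3 it passed (adjusted p = 3.8e-04 by edgeR), whereas without batch 1 its log2 fold change was −0.37 (adjusted p = 0.465 by edgeR). Cdc7, the catalytic subunit, was at 6.06, 7.99 and 4.63 CPM in iASPP KO and 7.26, 4.18 and 12.2 CPM in iASPP WT, a log2 fold change of −0.25 with an SE of 0.41 and an edgeR adjusted p of 0.832. Its direction differed between batches (−0.26, 0.92 and −1.38) and was reversed without batch 3.

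Polymerase alpha-primase lays down the RNA-DNA primers. All 4 of its genes were lower in all 3 batches, with log2 fold changes of −1.05 to −0.55, and 1 passed. Pola1, the catalytic subunit (chromosome X, 93304767 to 93632155), was at 12.03, 14.3 and 23.6 CPM in iASPP KO and 32.0, 22.4 and 50.4 CPM in iASPP WT, a log2 fold change of −1.05 with an SE of 0.18 and an edgeR adjusted p of 0.0136. Without batch 1 its adjusted p was 0.0612 by edgeR. The smallest change was that of Prim2, the large primase subunit, at 15.6, 14.6 and 25.7 CPM in iASPP KO and 23.0, 20.02 and 40.1 CPM in iASPP WT, a log2 fold change of −0.55 with an SE of 0.16 and an edgeR adjusted p of 0.0959. Pola2 and Prim1 had log2 fold changes of −0.56 and −0.60 and adjusted p of 0.0736 and 0.0692 by edgeR, and both passed without batch 3 but not without batch 1 or 2.

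Polymerases epsilon and delta copy the leading and the lagging strand. Of the 52 genes, 2 encode subunits of polymerase epsilon, and both passed, while its small subunits Pole3 and Pole4, which are not among the 52, did not (log2 fold changes −0.21 and −0.02, adjusted p = 0.499 and 0.965 by edgeR). Pole2, its regulatory subunit (chromosome 12, 69201773 to 69228195), was at 4.41, 6.60 and 8.37 CPM in iASPP KO and 13.6, 16.7 and 20.6 CPM in iASPP WT, a log2 fold change of −1.42 with an SE of 0.22 and an edgeR adjusted p of 0.00739. Pole, the catalytic subunit, was at 18.4, 17.6 and 25.5 CPM in iASPP KO and 38.1, 32.4 and 40.0 CPM in iASPP WT, a log2 fold change of −0.86 with an SE of 0.16 and an edgeR adjusted p of 0.0166. In both genes every iASPP-KO culture lay below every iASPP-WT culture. The call of Pole was lost when batch 1 or batch 2 was left out (adjusted p = 0.0903 and 0.0829 by edgeR). For Pole2, 8.50% of the exon bases are shared on the same strand with Gm49384, and reads there could not be assigned. Of the 3 polymerase delta genes among the 52, 1 passed, and Pold4, which is not among them, did not (log2 fold change 0.25). Pold1, the catalytic subunit (chromosome 7, 44532746 to 44548849), was at 8.37, 9.61 and 17.97 CPM in iASPP KO and 20.2, 15.6 and 37.9 CPM in iASPP WT, a log2 fold change of −1.02 with an SE of 0.19 and an edgeR adjusted p of 0.0179. Without batch 1 its adjusted p was 0.0802 by edgeR. Pold2 was at 25.6, 30.5 and 23.5 CPM in iASPP KO and 20.3, 26.9 and 46.1 CPM in iASPP WT, a log2 fold change of −0.15 with an SE of 0.24 and an edgeR adjusted p of 0.822. Its log2 fold changes of 0.33, 0.18 and −0.97 differed in sign, and without batch 3 the fitted value turned positive (0.26). Pold3 had a log2 fold change of −0.53 and did not pass.

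The PCNA clamp holds polymerases on DNA and the RFC complex loads it. Of the 6 genes, 3 passed, the small loader subunits Rfc3, Rfc4 and Rfc5. Rfc4 (chromosome 16, 23113943 to 23127737) was at 6.01, 4.40 and 13.0 CPM in iASPP KO and 11.1, 11.1 and 21.2 CPM in iASPP WT, a log2 fold change of −0.97 with an SE of 0.23 and an edgeR adjusted p of 0.0450. Rfc3 and Rfc5 had log2 fold changes of −0.70 and −0.89. All 3 calls were lost when batch 1 or 2 was left out, with adjusted p by edgeR of 0.0998 without batch 1 and 0.273 without batch 2 for Rfc3, 0.111 without batch 1 and 0.240 without batch 2 for Rfc4 and 0.101 without batch 1 and 0.115 without batch 2 for Rfc5. Rfc1, the large subunit, was at 52.6, 73.0 and 75.2 CPM in iASPP KO and 56.3, 71.9 and 99.9 CPM in iASPP WT, a log2 fold change of −0.16 with an SE of 0.13 and an edgeR adjusted p of 0.608, with overlapping ranges and almost no difference in batch 2 (0.02). Rfc2 had a log2 fold change of −0.44 (adjusted p = 0.125 by edgeR), with separate ranges. Pcna, a common proliferation marker, was at 49.3, 49.8 and 63.4 CPM in iASPP KO and 67.8, 53.2 and 74.9 CPM in iASPP WT, a log2 fold change of −0.26 with an SE of 0.13 and an edgeR adjusted p of 0.341. Another gene holds 34.3% of its read-length windows.

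Okazaki fragments are trimmed by the flap endonuclease FEN1 and sealed by DNA ligase I, and both genes were significantly lower. Lig1 (chromosome 7, 13277283 to 13311433) was at 9.67, 10.3 and 17.2 CPM in iASPP KO and 23.5, 18.8 and 31.0 CPM in iASPP WT, a log2 fold change of −0.996 with an SE of 0.18 and an edgeR adjusted p of 0.0174, with no overlap between the groups. Fen1 was at 41.9, 43.1 and 67.9 CPM in iASPP KO and 79.2, 66.5 and 99.3 CPM in iASPP WT, a log2 fold change of −0.70 with an SE of 0.13 and an edgeR adjusted p of 0.0166, and its iASPP-KO culture of batch 3 was just above the lowest iASPP-WT culture. Leaving out batch 1 or 2 took the calls of both away, with adjusted p by edgeR of 0.0903 without batch 1 and 0.0551 without batch 2 for Lig1 and 0.0996 without batch 1 and 0.0759 without batch 2 for Fen1.

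RPA coats single-stranded DNA as a trimer. Its genes were lower in all 3 batches, and 1 of 3 passed. Rpa2 (chromosome 4, 132768332 to 132778752) was at 14.3, 10.4 and 28.8 CPM in iASPP KO and 32.2, 25.1 and 52.9 CPM in iASPP WT, a log2 fold change of −1.10 with an SE of 0.16 and an edgeR adjusted p of 0.00575. Rpa3, the smallest subunit, was at 8.11, 6.64 and 15.1 CPM in iASPP KO and 8.86, 10.5 and 16.9 CPM in iASPP WT, a log2 fold change of −0.31 with an SE of 0.23 and an edgeR adjusted p of 0.568, and Rpa1 had a log2 fold change of −0.33 (SE 0.13). Per kilobase of exon the mean level of Rpa2 went from 12.3 ± 4.82 CPM in iASPP WT to 5.96 ± 3.26 in iASPP KO (SD, n = 3 each), while Rpa1 had 19.95 ± 5.46 and 15.7 ± 3.00. Of the fork protection genes, which couple the helicase to the polymerases and signal stalled forks, Timeless passed. Timeless (chromosome 10, 128232065 to 128252941) was at 8.42, 8.48 and 21.2 CPM in iASPP KO and 18.6, 15.5 and 44.6 CPM in iASPP WT, a log2 fold change of −1.03 with an SE of 0.18 and an edgeR adjusted p of 0.0120. Its partner Tipin was at 16.9, 15.2 and 30.9 CPM in iASPP KO and 31.8, 19.3 and 42.8 CPM in iASPP WT, a log2 fold change of −0.57 with an SE of 0.17 and an edgeR adjusted p of 0.104. Clspn, the adaptor of the CHK1 kinase (chromosome 4, 126556935 to 126593903), had the largest fitted change of the group but also the largest spread. It was at 4.32, 8.98 and 16.5 CPM in iASPP KO and 19.3, 11.53 and 31.4 CPM in iASPP WT, a log2 fold change of −1.12 with an SE of 0.30 and an edgeR adjusted p of 0.0747, with batch values of −2.13, −0.36 and −0.92. Clspn passed with DESeq2 (adjusted p = 0.0139) and when batch 2 or 3 was left out (adjusted p = 0.0316 and 4.1e-04 by edgeR), whereas without batch 1 its log2 fold change was −0.65 (adjusted p = 0.307 by edgeR).

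Maintenance methylation copies DNA methylation behind the fork. Uhrf1 (chromosome 17, 56303321 to 56323486), which reads hemimethylated DNA and recruits DNMT1, had 20.8, 14.1 and 50.6 CPM in iASPP KO and 58.3, 40.2 and 115 CPM in iASPP WT, with means of 28.5 ± 19.4 and 71.2 ± 39.0 CPM (SD, n = 3 each), which gave a log2 fold change of −1.39 with an SE of 0.14 and an edgeR adjusted p of 0.00109. Its values within batches were −1.48, −1.51 and −1.18, its ranges overlapped through the iASPP-KO culture of batch 3, and other genes hold 22.7% of its read-length windows. Hells, a chromatin remodeler needed for methylation, had a log2 fold change of −1.07 (SE 0.18) and separate ranges. Dnmt1, the methyltransferase itself, was at 111, 109.7 and 113 CPM in iASPP KO and 153, 125 and 148 CPM in iASPP WT, a log2 fold change of −0.35 with an SE of 0.11 and an edgeR adjusted p of 0.143. Dnmt1 was lower in every iASPP-KO culture than in every iASPP-WT culture, but the difference was small and did not pass.

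Of the nucleotide supply genes, Tyms and Rrm1 passed, and Rrm2 and Tk1 did not. Tyms (chromosome 5, 30058202 to 30073617), the thymidylate synthase of the de novo pathway, was at 16.5, 18.3 and 26.9 CPM in iASPP KO and 32.0, 30.7 and 42.8 CPM in iASPP WT, a log2 fold change of −0.79 with an SE of 0.15 and an edgeR adjusted p of 0.0211. The ranges of Tyms were separate. Rrm1, the large subunit of ribonucleotide reductase, had a log2 fold change of −0.54 and Rrm2, the small subunit made in S phase, of −0.43 (adjusted p = 0.0262 and 0.175 by edgeR). In batches 1, 2 and 3 the log2 fold change of Rrm2 was −0.20, −0.23 and −0.86. The calls of Tyms and Rrm1 were lost when batch 1 or 2 was left out, with adjusted p by edgeR of 0.114 without batch 1 and 0.0979 without batch 2 for Tyms and 0.177 without batch 1 and 0.133 without batch 2 for Rrm1. Read-length windows also found in other genes made up 11.6% of Tyms and 9.15% of Rrm2. Tk1 (chromosome 11, 117815526 to 117826092), the thymidine kinase of the salvage pathway, was the 1 member with a positive fitted value. It was at 8.60, 12.9 and 23.1 CPM in iASPP KO and 7.92, 7.05 and 26.0 CPM in iASPP WT, a log2 fold change of 0.26 with an SE of 0.24 and an edgeR adjusted p of 0.661. Its log2 fold changes in batches 1, 2 and 3 were 0.12, 0.87 and −0.17, so that the direction rested on batch 2, and without batch 2 the fitted value was −0.03. Tk1 was also the member with the lowest level per exon length of this group, at 2.63 ± 2.05 CPM per kilobase in iASPP WT (SD, n = 3).

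**Figure D4:**
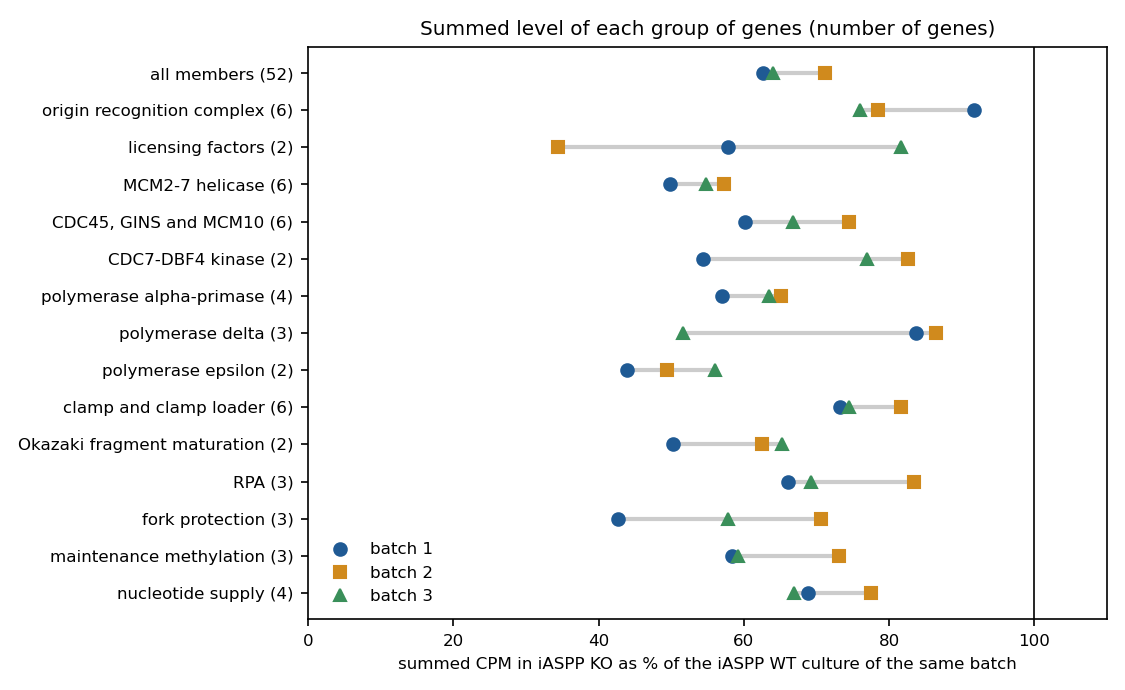
Summed CPM of each group of genes in the iASPP-KO culture as a percentage of the iASPP-WT culture of the same batch (horizontal axis), with the number of genes in parentheses and circles, squares and triangles for batches 1, 2 and 3. Every point lies below 100%. The 52 genes together are at 62.6%, 71.2% and 64.0%, the MCM2-7 genes at 49.9%, 57.2% and 54.8%, and the origin recognition complex at 91.7%, 78.5% and 75.9%.

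Levels of different genes were compared per kilobase of exon, as CPM divided by the summed exon length in the count table. In iASPP WT the highest mean levels were those of Fen1 (33.7 ± 6.83 CPM per kilobase, SD, n = 3), Rrm2 (28.4 ± 9.45), Gins4 (28.0 ± 6.23), Pcna (27.2 ± 4.598) and Mcm5 (26.0 ± 11.8), which did not differ beyond their spread. The lowest were those of Mcm10 (1.88 ± 0.663), Cdc7 (1.88 ± 0.962) and Orc1 (2.28 ± 0.389), whose spreads also overlapped. Within the MCM ring, whose proteins are used in equal number, mean levels in iASPP WT ranged from 8.77 CPM per kilobase for Mcm2 to 26.0 for Mcm5, a ratio of 2.97. In iASPP KO the same range was 5.63 for Mcm2 to 13.5 for Mcm4, a ratio of 2.40. Between Cdt1 and Cdc6 the ratio was 1.74 in iASPP WT (5.64 ± 1.33 and 3.24 ± 0.127 CPM per kilobase, SD, n = 3) and 3.72 in iASPP KO (4.31 ± 0.842 and 1.16 ± 0.780). Exon length here sums all annotated exons of a gene name, so a gene with many unused exons appears lower. Mcm2 has 6956 exon bases but 3453 read-length windows in its longest transcript, against 3993 and 3340 for Mcm5. How much of the range within the MCM ring comes from exon length was not tested.

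**Figure D5:**
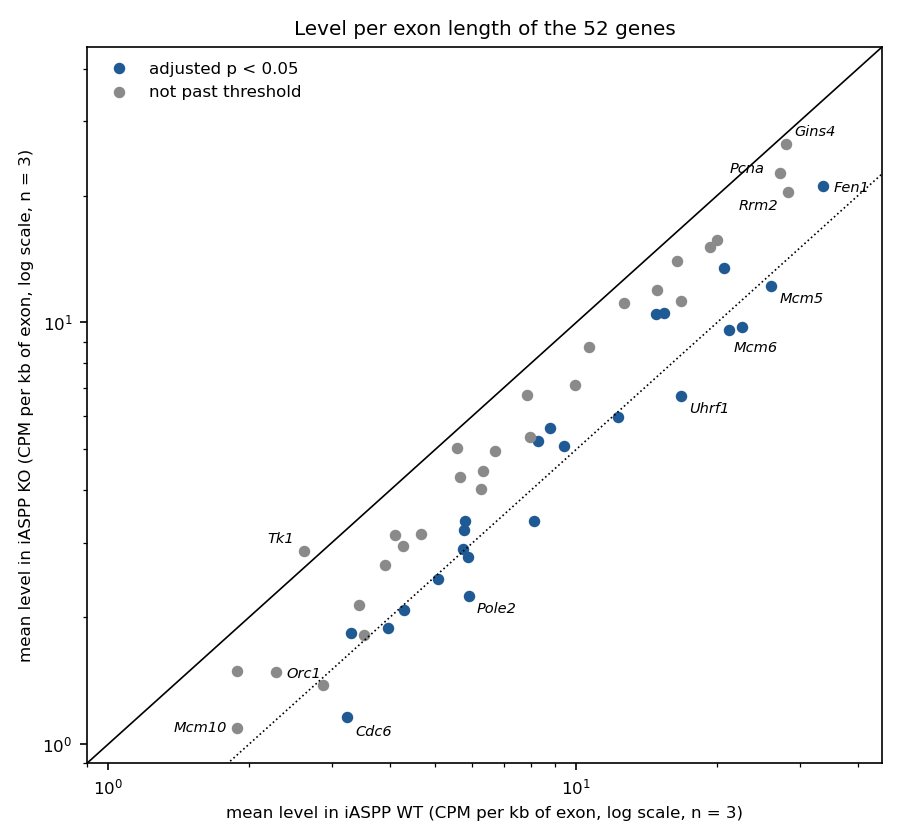
Mean CPM per kilobase of exon in iASPP WT (horizontal axis, log scale) and iASPP KO (vertical axis, log scale) of the 52 genes, each a mean of 3 cultures. The solid line marks equal levels and the dotted line a level in iASPP KO at 50% of iASPP WT, and blue points have an adjusted p below 0.05. All points except Tk1 lie below the solid line, Gins4 (28.0 and 26.5) lies close to it, and Uhrf1 (16.7 and 6.69) and Cdc6 (3.24 and 1.16) are among those below the dotted line.

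A list of 55 further genes of the same pathways, none of them among the 52, was read from the same fit. It too was chosen with earlier results of these data known. All 55 were tested. With edgeR 10 had significantly lower expression in iASPP KO and none higher, against 1.95% and 2.17% of all tested genes. At an unadjusted p below 0.05, 23 were lower and 0 higher, against 1206 and 1292 of the 14916 tested genes. DESeq2 called 13 lower and 0 higher, against 402 and 470 genes in all. The median log2 fold change of the 55 was −0.26, against 0.01 over all tested genes. The largest falls among those that passed were those of Ticrr, which brings CDC45 to origins, Gmnn, which encodes the CDT1 inhibitor geminin, and Chtf18, an alternative clamp loader. Ticrr was at 2.18, 1.75 and 5.31 CPM in iASPP KO and 9.14, 4.51 and 10.7 CPM in iASPP WT, a log2 fold change of −1.47 with an SE of 0.33 and an edgeR adjusted p of 0.0373. Gmnn was at 10.2, 12.7 and 19.0 CPM in iASPP KO and 24.2, 23.1 and 47.8 CPM in iASPP WT, a log2 fold change of −1.15 with an SE of 0.17 and an edgeR adjusted p of 0.00717. For Chtf18 the values were 12.6, 10.01 and 21.4 CPM and 30.6, 24.6 and 39.2 CPM, a log2 fold change of −1.15 with an SE of 0.17 and an edgeR adjusted p of 0.00691. These 3 genes were lower in every batch, and the ranges of Gmnn and Chtf18 were separate. The others that passed were Wdhd1, Topbp1, Chaf1a, Asf1b, Nasp, Dtl and Atic, with log2 fold changes of −1.09 to −0.57. They act in fork progression and checkpoint signalling (Wdhd1, Topbp1), nucleosome assembly on new DNA (Chaf1a, Asf1b, Nasp), degradation of CDT1 (Dtl) and purine synthesis (Atic). Of the 20 nucleotide supply genes on this list only Atic passed, and the counterparts of members outside S phase, the mitochondrial Tk2 and the p53-inducible Rrm2b, did not pass, with log2 fold changes of 0.32 for Tk2 and 0.18 for Rrm2b. With batch 1 left out 3 of the 55 genes passed, and with batch 2 left out 2 did. Over all tested genes 151 and 117 were called lower in these fits.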

How the data were processed

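RNA of 6 keratinocyte cultures, 3 iASPP KO and 3 iASPP WT, was depleted of ribosomal RNA and sequenced as single reads of 42 bases. The authors checked reads with FastQC 0.11.9, removed adapters with cutadapt 2.10, aligned to mm10 (GRCm38) with STAR 2.7.3 and the GENCODE vM25 annotation, and deposited raw counts per gene name from featureCounts 2.0.0, on exons and by strand, without normalization. A deposited table of the authors' own DESeq2 comparison (mean, fold change, standard error and p-values per gene) was not used.

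The test was that of edgeR 4.0.16 under R 4.3.3 (filterByExpr, TMM, glmQLFit and glmQLFTest, batch and condition in the model, Benjamini-Hochberg over 14916 genes, threshold 0.05). The standard error was taken as the absolute log2 fold change over the root of F. Within a batch, log2 CPM (prior count 2) was subtracted between the conditions. The labels give each batch 1 culture of each condition, which pairs them, and deviations from the condition means correlated at 0.30, 0.37 and 0.57 within batches. Between batches 1 and 2 they correlated at 0.18 and 0.09, and between batch 3 and the others at −0.43 to −0.29. Batch 3 was thus set apart more clearly than batches 1 and 2 were from each other. Depth was 20202517 to 25157117 counts, and its precision covers counting error only. No 2 cultures of a condition agreed within sampling noise.

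Gene positions come from the count table, promoters from RefSeq (GRCm38.p6) and shared read-length windows from GENCODE vM21 transcripts. The edgeR fit was tested on simulated counts with known changes. The members and lists were chosen with earlier results of these data known. Named with full statistics are the members with the largest and smallest absolute change of each sub-complex, Ppp1r13l, any member higher or untested, and 3 further pathway genes in each direction, plus others chosen after their values were seen. Alternatives were no batch term, DESeq2 1.42.0, 2 other scalings, 2 other filters, robust dispersion and each batch left out. Figures were made with matplotlib 3.10.9.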

Additional observations from a re-analysis of the deposited data

How the results depend on the processing

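The median log2 fold change of the 52 genes moved little, from −0.66 to −0.55 with a batch left out and by less under the other alternatives, and no scaling moved the median of all genes by more than 0.01. The number of genes that passed depended on the replicate block: without the batch term 0 members, 0 of the 55 further replication genes and 0 genes in either direction over all tested genes passed (18 members, 11 further genes, 331 lower and 360 higher genes at an unadjusted p below 0.05), and Ppp1r13l, at −1.38, did not pass (adjusted p = 0.973 by edgeR). Leaving out single batches gave 10 to 29 members, 2 to 15 further genes, and 117 to 662 lower and 169 to 793 higher genes in all. With only 1 count required in any library, 491 genes were lower and 624 higher, and 28 members passed. DESeq2 called 26 members, robust dispersion 24, and the other scalings and the stricter filter 23. Medians with a batch left out ran from −0.39 to −0.27 for the origin recognition complex, from −0.67 to −0.55 for polymerase alpha-primase from −0.48 to −0.39 for RPA, from −1.40 to −0.63 for the licensing factors, from −0.72 to −0.20 for CDC7-DBF4 and from −1.10 to −0.65 for fork protection. Among single members 4 changed sign when a batch was left out, none of them past the threshold: the log2 fold change of Cdc7 ran from −0.82 to 0.33, that of Orc3 from −0.25 to 4.9e-04 and that of Pold2 from −0.39 to 0.26, positive without batch 3, and that of Tk1 from −0.027, without batch 2, to 0.50. With a batch left out the fit has 1 residual degree of freedom.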

Other observations

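The same genes differed between batches as well as between conditions. In iASPP WT, the culture of batch 3 was above the mean of batches 1 and 2 by a median of 0.73 on the log2 scale over the 52 genes, against 0.01 over all tested genes, and in iASPP KO by 0.77 against 0.03. The MCM2-7 genes were 1.91-fold higher in batch 3 in iASPP WT and 1.92-fold in iASPP KO by the median gene, and the fork protection genes 2.098-fold and 2.49-fold. The origin recognition complex differed less, at 1.35-fold and 1.17-fold. Other groups did not differ alike in both conditions: the licensing factors were at 0.924-fold in iASPP WT and 1.95-fold in iASPP KO, polymerase delta at 1.97-fold and 1.08-fold, and CDC7-DBF4 at 1.89-fold and 1.23-fold. The 52 genes took 0.211%, 0.172% and 0.340% of all counts in batches 1, 2 and 3 of iASPP WT, and 0.121%, 0.1196% and 0.209% in those of iASPP KO, so that the iASPP-KO culture of batch 3 was close to the iASPP-WT culture of batch 1. With 1 culture per batch and condition, the difference between batches has no replicate check here, and the part of the fibroblast markers that also set batch 3 apart was not tested.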
